A study of Mus musculus with 10 samples.

Results

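The early response of mouse cortical neurons to a proteasome inhibitor is described here, across all measured genes and beyond the proteasome, heat shock and cholesterol sets that usually lead such accounts. It rests on the 5 arrays of 24 h among the 10 of the series, chosen by sample title: 3 of cultures with lactacystin and 2 of controls. All came from foetal Swiss albino mice of gestation day 15 to 16, with no genetic change named, and the dissociated cortical neurons were treated on day 5 in vitro. Lactacystin was given at 1 µM, diluted in serum-free medium from a stock in DMSO, and whether the controls received that solvent is not stated in the labels. The remaining 5 arrays, of 48 h, served to estimate the spread and to test whether a change differed between the times. Nothing in the labels says that replicates came from separate cultures, and the p-values therefore reflect the scatter among these arrays, part of which may be technical.

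Lactacystin is a bacterial product that binds the catalytic subunits of the proteasome, the complex that degrades ubiquitin-tagged proteins. Cells whose proteasome is blocked keep short-lived regulators, among them transcription factors and their inhibitors, and gather misfolded proteins. Neurons do not divide, and so cannot dilute such proteins by growth. Known responses include new proteasome subunits, chaperones, antioxidant enzymes and stress-induced transcription factors.

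Each value is an intensity, 1 summary signal per probe set, and every array was scaled to the same trimmed mean before log2 of the signal plus 32 was taken. At 24 h replicate 1 of each group was on the array design U74A. Control replicate 2 and lactacystin replicates 2 and 3 were on its revision U74Av2. At 48 h control replicate 1 and lactacystin replicate 3 were on U74A, and control replicate 2 and lactacystin replicates 1 and 2 on U74Av2. Signals below are listed in the order of the replicates, so the first of each group comes from U74A. Log2 changes compare lactacystin with control after adjustment for design, with the standard error (SE) and the adjusted p of the limma fit. A change counts as a rise or fall when the adjusted p is under 0.05. Since the pseudocount of 32 pulls low signals together, log2 changes of dim genes are understated. Median deposited signals ran from 159 to 235.1 over the 10 arrays, and 19.9% to 27.8% of an array's scaled signals lay under the pseudocount. Precision is limited by how few arrays there are.

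The label of the cells was set against marker genes. Stmn2, Dcx and Gap43, proteins of growing neurons, had signals between 3902 and 12128 on the 5 arrays. The neuron markers (12 of 17 measured) summed to 39693 and 30744 in the controls and to 26967, 21669 and 21270 under lactacystin. Of the 12, 0 rose and 4 fell (33.3%), beside 8.66% risen and 6.68% fallen over all tested genes. Astrocyte and radial glia genes were also high, with sums between 15825 and 26532 (11 of 14 measured), led by Fabp7. Microglia genes (12 of 13 measured) summed to 854 to 1158 in the controls and 924 to 1728 under lactacystin. Itgam, Adgre1 and Aif1 were near or below the pseudocount, but Cx3cr1 had 142 to 246 and C1qc 112 to 212 on the 5 arrays. Of 8 tested microglia genes 1 rose and 0 fell, with a median of -0.04. The 1 that rose was Cd68, a lysosomal protein of phagocytes (171 and 131 against 603, 370 and 365), by 1.41 ± 0.27. C1qc, at 193 and 194 against 212, 112 and 124, did not rise, nor did C1qa (118 and 56.6 against 137, 11.0 and 19.1). Oligodendrocyte genes (6 of 10 measured) summed to 1116 to 2387 and to 827 to 1812, with Mog and Mag at most 12.2. In the same list Pdgfra had 306 to 1567, Sox10 257 to 439 and Mbp 239 to 353. Endothelial genes (6 of 7 measured) summed to 164 to 216 and to 236 to 260, with Cdh5 and Cldn5 at most 16.4, Pecam1 at 32.3 to 115 and Kdr at 62.8 to 131. Fibroblast and mural genes (12 of 14 measured) summed to 3672 to 4629 and to 4848 to 7397, of which Tagln, a smooth muscle actin-binding protein, rose by 1.24 ± 0.27 (adjusted p = 0.00960). Igfbp2 had the largest signal of this list on every array, between 1666 and 3957. Erythroid genes (3 of 5 measured) summed to 146 to 199.7 and to 199.7 to 227. In bulk RNA fewer cells of a type and less RNA per cell cannot be told apart.

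Of 6984 probe sets tested 1038 passed the threshold, or 14.9%, with 573 higher (8.20%) and 465 lower (6.66%). Taking 1 probe set for each of 5541 named genes, 480 genes rose (8.66%) and 370 fell (6.68%), of which 132 and 40 changed at least 2-fold. The larger changes were therefore mostly rises. All 850 had the same sign within U74A and within U74Av2, as did 69.1% of all probe sets, and nothing is read from this since both designs entered the fit. The groups did not overlap for 751 of the 850, and over all tested genes they did not overlap for 18.1% with lactacystin higher and for 19.1% with control higher. The proteasome, heat shock and cholesterol lists held 35 of the rises and 12 of the falls, so most changed genes lay elsewhere. This depends on how the lists were drawn: Serpinh1, Hspe1, Hspd1, Hspa9 and Hspa5, all chaperones, were not in the heat shock list and count as outside it. The number of probe sets past the threshold depended on the arrays: it was 310 when control replicate 2 was left out, 592 for control replicate 1 and 679 for lactacystin replicate 2.

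**Figure D1:**
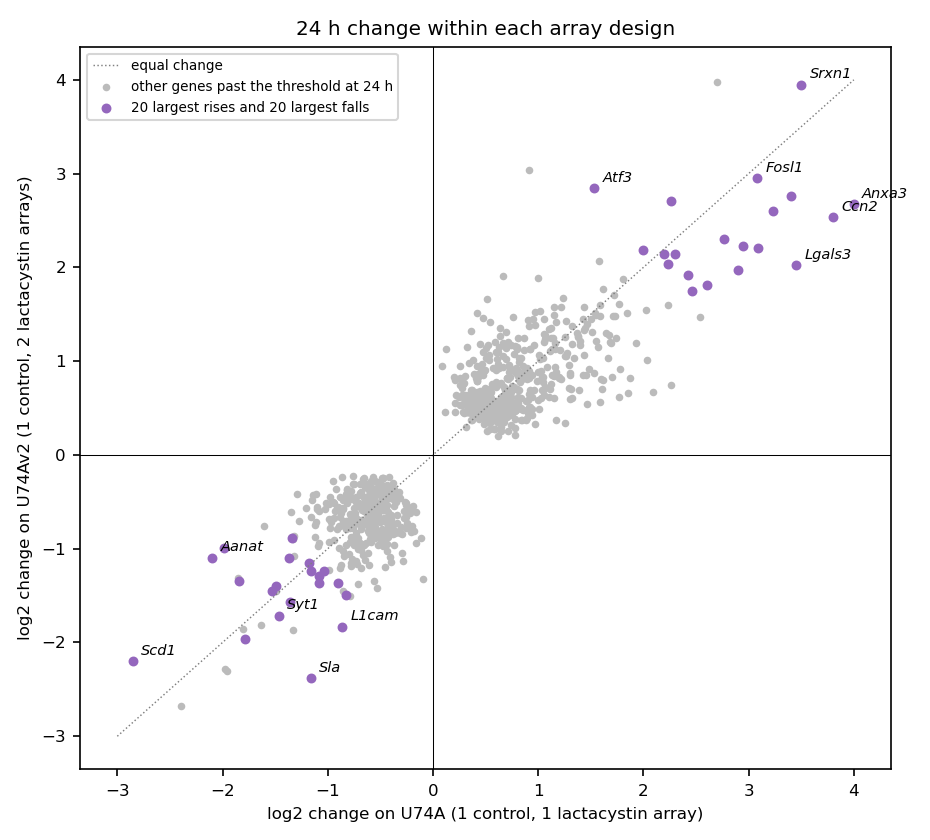
Log2 change at 24 h within U74A (x axis, 1 control and 1 lactacystin array) against the change within U74Av2 (y axis, 1 control and 2 lactacystin arrays) for the 850 genes past the threshold. All 480 genes that rose lie above 0 and all 370 that fell lie below 0 on both axes.

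The 20 largest rises outside the usual lists spanned 2.01 to 3.66 log2, and in each of them every lactacystin signal lay above both controls. That was so for 18.1% of all tested genes. The 20 were chosen by these same signals, which favours such a separation, so nothing is read from it. In 6 of the 20 a control signal lay under the pseudocount, and in 3 both did. They fell into enzymes of redox and aldehyde metabolism, stress transcription factors, proteins of the membrane, cell surface and matrix, and a few others. Within U74A 16 of the 20 were larger than within U74Av2, with medians of 2.83 and 2.22.

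Among the redox enzymes, Srxn1 (sulfiredoxin, which reactivates over-oxidised peroxiredoxins) had signals of 105 and 34.7 in the controls and 1520.3, 1035 and 962 under lactacystin. That is a difference of 3.66 ± 0.51 log2 (SE, adjusted p = 0.000882), with a control of U74A 3.03 times that of U74Av2. Ptgr1, a reductase of lipid aldehydes and prostaglandins, stood at 99.2 and 80.8 against 1354, 748 and 719 and rose by 2.94 ± 0.35 (adjusted p = 0.000309). The groups of both genes lay far apart. Ephx1, the microsomal epoxide hydrolase, went from 99.1 and 73.6 to 1085, 468 and 446, a rise of 2.54 ± 0.25. Cyb5r1, of the cytochrome b5 reductase family, had 158 and 454 in the controls and 989, 1864 and 1751 with lactacystin, a rise of 2.17 ± 0.18. Its other probe set rose less, by 0.64 ± 0.13 (adjusted p = 0.00713). Gsta4, a glutathione transferase that acts on aldehydes from oxidised lipids, rose by 2.06 ± 0.30. For Cyb5r1 the U74A lactacystin signal was lower than those on U74Av2, as was its control, and the rise was present within each design.

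The stress transcription factors Fosl1 and Atf3 and the stress-induced gene Ier3 were also in this group. Fosl1, a Fos family partner of Jun in AP-1, was near the bottom of the scale in the controls (13.8 and 13.3) and at 356, 316 and 322 under lactacystin, a rise of 3.02 ± 0.24 (adjusted p = 3.27e-05). Ier3, an immediate early gene tied to survival signalling, went from 138 and 82.4 to 786, 717 and 718, or 2.51 ± 0.26 log2. In both genes the lactacystin arrays were close together. Atf3, which also dimerises with Jun proteins, had 137 and 122 in the controls and 458, 1046 and 1102 with lactacystin, and rose by 2.34 ± 0.29. Its lactacystin signal was lower on U74A than on U74Av2, and another probe set for the gene gave 0.89 ± 0.29 (adjusted p = 0.059), not past the threshold.

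Of the surface, membrane and matrix genes, Anxa3, an annexin that binds phospholipid in the presence of calcium, had control signals of 85.6 and 56.9 and lactacystin signals of 1848, 535 and 534, a rise of 3.17 ± 0.31. Anxa2 rose by 2.01 ± 0.21 and its binding partner S100a10 by 2.12 ± 0.22. Lgals3, the carbohydrate-binding galectin-3, had 63.6 and 29.7 against 1013, 235 and 204, a rise of 2.53 ± 0.44. Anxa3 and Lgals3 were each several times higher on the U74A lactacystin array than on the 2 of U74Av2, while their controls differed less. Without control replicate 2 the change in Lgals3 was 2.64 with an adjusted p = 0.0510, so its call rests on that array, and this was the case for 1 of the 20 rises. Emp1, a small membrane protein, rose by 2.16 ± 0.18, and Cavin3, a coat protein of caveolae, by 2.33 ± 0.20.

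Ccn2 (connective tissue growth factor), a matrix protein that modulates growth factors, had 10.2 and 59.3 in the controls and 556, 542 and 459 under lactacystin, a rise of 3.03 ± 0.27. Serpinh1, the collagen chaperone of the endoplasmic reticulum, was the brightest of these genes and went from 504 and 527 to 3609, 2798 and 2671, a rise of 2.49 ± 0.19. Plaur, the urokinase receptor, had 22.3 and 12.6 against 185, 177 and 167, a rise of 2.04 ± 0.30. In all 3 genes every lactacystin signal was several times the higher control. The other rises were of different kinds. Ifi202b, an interferon-inducible DNA-binding protein with close relatives in the genome, so that its probe set is uncertain between them, had 1.38 and 13.0 against 281, 252 and 229, a rise of 2.86 ± 0.31. Rnh1, the cytosolic ribonuclease inhibitor, rose by 2.45 ± 0.28, and Ctsc, a lysosomal dipeptidyl peptidase, by 2.15 ± 0.25.

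**Figure D2:**
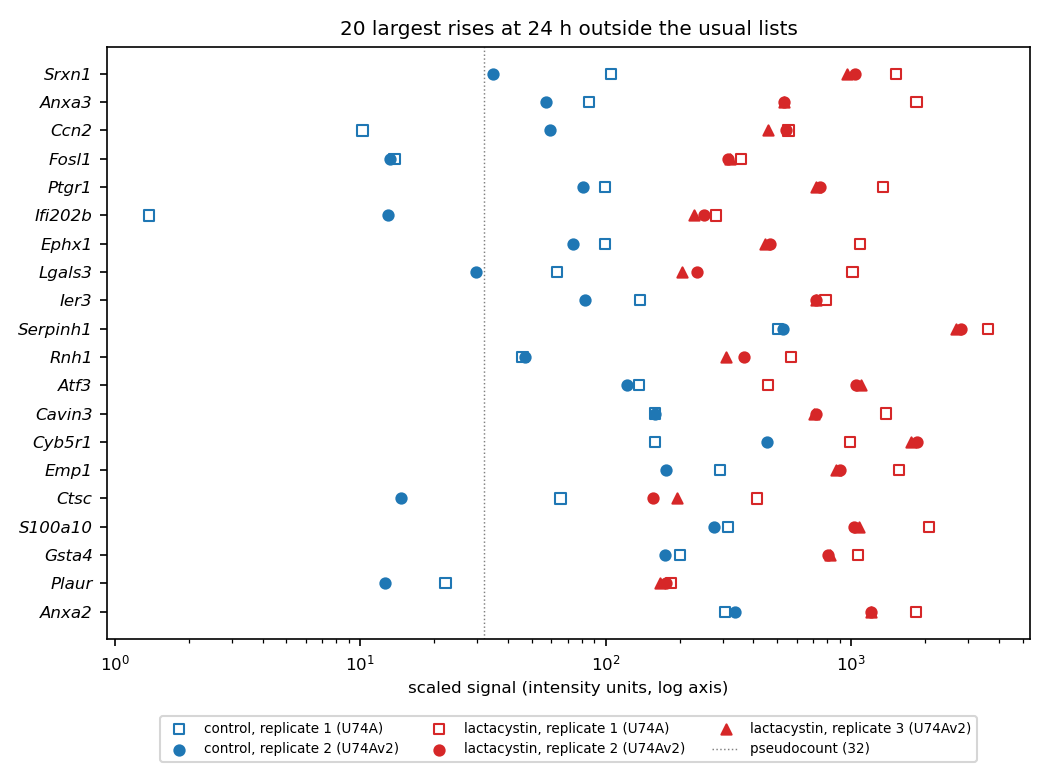
Scaled signals on a log axis of the 20 largest rises outside the usual lists, with 1 point for each of the 2 control and 3 lactacystin arrays of 24 h and the array design marked by shape. In every gene the 3 lactacystin points lie above both control points, which the choice of genes favours.

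RefSeq promoters (build GRCm38.p6, 250 bases before to 50 after the start) were found for 14 of these 20 genes. They were read for letters that stress-activated factors are known to bind, on both strands: TGANTCA for AP-1, TGACGTCA for the cyclic AMP response element, TGACNNNGC for the antioxidant response element, TTCNNGAA (with any base on either side) for the heat shock element and CACGTG for the E-box. The AP-1 letters occurred in 5 of the 14 (35.7%), namely Srxn1, Rnh1, Emp1, Plaur and Anxa2. They occurred in 6.44% of the promoters of 4471 tested genes and in 1 of the 11 promoters found among the 20 largest falls (9.09%), that of Npy1r. The antioxidant letters were in 21.4% of the rises, 18.2% of the falls and 16.3% of tested genes, and the heat shock letters in 21.4%, 9.09% and 8.43%. The E-box was in 7.14%, 18.2% and 12.8%, and the cyclic AMP element in 0 of the 14, 0 of the 11 and 3.35%. A gene with several starts counts as holding a motif if any of its promoters does, and a match describes letters, not binding. Of the rises with AP-1 letters, the promoters of 4 surface and redox genes are shown, without Rnh1, in capitals where a motif matches. They were picked for these letters from genes chosen as rises, and whether the genes change together was not tested. All 4 are on the plus strand, at chr2:152105274-152105573 for Srxn1, chr6:135362681-135362980 for Emp1, chr7:24462233-24462532 for Plaur and chr9:69453433-69453732 for Anxa2.
Srxn1: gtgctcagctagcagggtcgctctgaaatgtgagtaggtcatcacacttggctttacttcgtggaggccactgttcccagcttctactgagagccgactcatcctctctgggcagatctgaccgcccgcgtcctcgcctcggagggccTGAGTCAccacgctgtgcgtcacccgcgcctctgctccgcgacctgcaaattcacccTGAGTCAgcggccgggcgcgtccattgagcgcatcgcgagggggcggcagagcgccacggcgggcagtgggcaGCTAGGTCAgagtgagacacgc
Emp1: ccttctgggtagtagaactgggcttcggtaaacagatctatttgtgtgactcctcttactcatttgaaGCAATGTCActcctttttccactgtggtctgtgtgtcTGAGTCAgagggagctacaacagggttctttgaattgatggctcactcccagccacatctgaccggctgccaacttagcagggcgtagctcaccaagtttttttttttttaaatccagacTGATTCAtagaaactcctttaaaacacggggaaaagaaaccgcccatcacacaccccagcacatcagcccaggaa
Plaur: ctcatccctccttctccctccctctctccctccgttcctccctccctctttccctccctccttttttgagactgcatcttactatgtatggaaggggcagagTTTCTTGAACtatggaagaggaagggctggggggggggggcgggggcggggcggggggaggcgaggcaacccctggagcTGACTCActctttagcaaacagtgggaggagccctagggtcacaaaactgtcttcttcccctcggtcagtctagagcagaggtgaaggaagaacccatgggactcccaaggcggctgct
Anxa2: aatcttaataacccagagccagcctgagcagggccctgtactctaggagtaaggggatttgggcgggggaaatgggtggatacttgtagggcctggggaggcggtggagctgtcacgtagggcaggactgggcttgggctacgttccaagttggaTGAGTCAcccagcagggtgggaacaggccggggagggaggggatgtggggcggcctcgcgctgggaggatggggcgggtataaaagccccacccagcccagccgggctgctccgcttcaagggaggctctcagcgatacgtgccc
Srxn1 has AP-1 letters beginning at -102 and -45 from the start and antioxidant letters at 29 after it. Emp1 has AP-1 letters at -145 and -25 and antioxidant letters at -182, Plaur AP-1 letters at -69 and heat shock letters at -148, and Anxa2 AP-1 letters at -95.

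The 20 largest falls outside the usual lists were smaller than the rises, and their calls were lost more often when 1 array was left out. They spanned -1.12 to -2.45 log2, and 18 of them had groups that did not overlap. Over all tested genes 19.1% had groups apart with lactacystin lower. The choice of these falls by the same signals favours such a separation, and nothing is read from it. Leaving out 1 array of 24 h cost 12 of the 20 their call: 10 without control replicate 2 (Cic, Gabrb2, Hoxa6, L1cam, Mrc2, Npy1r, Nrgn, Ppfia4, Sla and Syt1), 4 without control replicate 1 (Aanat, Fst, Hoxa6 and Mrc2), and 5, 3 and 2 without lactacystin replicates 1, 2 and 3. In 9 of the 20 a lactacystin signal lay under the pseudocount. They concerned fatty acid synthesis, neuronal signalling and adhesion, a water channel of astrocytes, and several single genes.

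The fall in Scd1, the desaturase that makes monounsaturated fatty acids, took signals of 3108 and 2173 in the controls to 403, 412 and 487 under lactacystin, or -2.45 ± 0.30 log2 (adjusted p = 0.000340). A further probe set for it fell by 3.32 ± 0.23. Elovl6, which lengthens saturated fatty acids, had 1246 and 1562 against 465, 548 and 466, with a change of -1.48 ± 0.13. Fasn, fatty acid synthase, went from 2149 and 2428 to 1197, 850.1 and 832, with a change of -1.21 ± 0.17. The groups were apart in all 3 genes, and all 3 kept their calls with any 1 array of 24 h left out.

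Among neuronal genes, Npy, a peptide transmitter of cortical interneurons, had 1137 and 759.6 in the controls and 294, 314 and 249 under lactacystin, with a change of -1.52 ± 0.18. Its receptor Npy1r had -1.19 ± 0.24, and Calb2 (calretinin, a calcium buffer of interneurons) had 679.7 and 497 against 348, 173 and 176 and -1.14 ± 0.15. Nrgn (neurogranin, a postsynaptic calmodulin-binding protein) stood at -1.38 ± 0.28, Gabrb2, a GABA-A receptor subunit, at -1.21 ± 0.23, and Cacna1g, a T-type calcium channel, at -1.24 ± 0.21. Npy, Calb2 and Cacna1g kept their calls with any 1 array left out. Syt1, the calcium sensor of transmitter release, had 2346 and 369 in the controls and 829.7, 106 and 76.3 with lactacystin. Its signals on U74A were several times those on U74Av2 within each group, so the groups overlapped, and the change of -1.48 ± 0.43 rests on the adjustment for design. Ppfia4, a scaffold of presynaptic active zones, stood at -1.15 ± 0.21, and the axonal adhesion molecule L1cam at -1.32 ± 0.40.

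Aqp4, the water channel of astrocyte endfeet, had 371 and 216 in the controls and 84.4, 41.5 and 23.4 under lactacystin, a fall of 1.89 ± 0.18 (adjusted p = 7.28e-05), and a second probe set fell by 1.38 ± 0.26. Gfap, the astrocyte filament, went from 291 and 320.4 to 162, 188 and 208, a fall of 0.64 ± 0.15. Other astrocyte markers went the other way at the same time, as Gja1 (connexin 43) rose by 1.04 ± 0.16 and the progenitor filament Nes by 0.69 ± 0.13. Of 10 tested astrocyte and radial glia genes 2 rose and 3 fell.

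The other large falls were of different kinds. Signals of Sla, a Src-like adaptor, were 1087 and 312 against 468, 17.3 and 56.3, in overlapping groups, with a change of -1.78 ± 0.52 that was -0.98 without control replicate 2 (adjusted p = 0.494). Aanat, known as an enzyme of melatonin synthesis, had -1.60 ± 0.33, and Mrc2, an endocytic receptor of collagen, had -1.50 ± 0.37. The homeobox gene Hoxa6 (189 and 109.9 against 23.8, 44.1 and 35.0) had -1.34 ± 0.35, and Scrg1, a small secreted protein, -1.17 ± 0.18. Cic, a transcriptional repressor that acts downstream of receptor kinases, had -1.15 ± 0.18, and Fst (follistatin, which binds activins) -1.12 ± 0.20. Of these genes Scrg1 kept its call with any 1 array of 24 h left out.

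**Figure D3:**
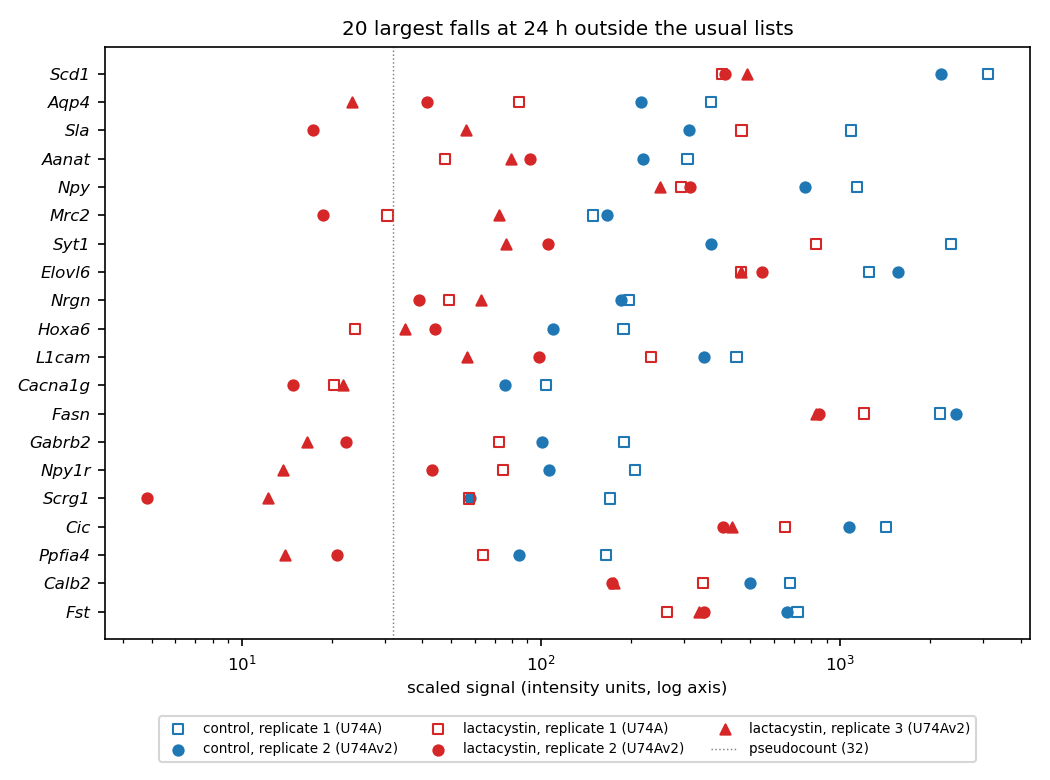
Scaled signals on a log axis of the 20 largest falls outside the usual lists, with 1 point for each control and lactacystin array of 24 h and the array design marked by shape. The groups do not overlap in 18 genes, which the choice of genes favours. Those of Sla and Syt1 overlap, with the U74A signals the higher ones in both groups.

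The 26 gene lists used to order the rest held 80 of the genes that rose and 60 of those that fell. They are described by the number of tested members that passed in each direction, beside the 8.66% higher and 6.68% lower over all genes, and by the median change, which over all genes was -0.03. No list was tested as a whole.

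Of 18 immediate early factors 7 rose (38.9%) and 0 fell, with a median of 0.42. Besides Fosl1, Ier3 and Atf3 these were Egr1, the zinc-finger factor induced by growth factor signalling, which went from 391 and 317 to 624, 781 and 954 (1.01 ± 0.21), Klf4 (0.87), Ier2 (0.63) and Klf10 (0.57). Egr1 stood at 0.58 without control replicate 2 (adjusted p = 0.194), and 3 members of the list rose without that array. Among 10 feedback inhibitors of growth factor signalling 3 rose and 1 fell. Dusp16, a phosphatase of stress-activated kinases, rose by 1.01 ± 0.25, Dusp1 by 0.48 ± 0.14 and Dusp6 by 0.48, and Socs2, an inhibitor of cytokine receptors, fell by 0.83 ± 0.17. In this list 0 or 1 member rose when any 1 array was left out. Socs2 stood at -0.61 without control replicate 2 (adjusted p = 0.158), when 0 members fell. Dusp2 had -0.49 and was not past the threshold.

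Of 19 secreted growth factors and cytokines 3 rose (15.8%) and 1 fell, and the median was 0.04. Csf1, the growth factor of microglia, had 270.0 and 225 in the controls and 944, 570.5 and 544 under lactacystin, a rise of 1.41 ± 0.14. Bmp7 rose by 1.17 ± 0.31 and Hbegf, a ligand of the EGF receptor, by 0.83 ± 0.13, while Inhba, the activin subunit, fell by 0.79 ± 0.20. Csf1 and Hbegf kept their calls with any 1 array left out, whereas Bmp7 lost its call without either control (0.93 without control replicate 2, adjusted p = 0.291). Inhba lost its call in 4 of the 5 cases, with an adjusted p = 0.339 without control replicate 2.

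Of 25 receptors 5 rose, Plaur among them, and 1 fell. Osmr, the oncostatin M receptor, went from 52.6 and 39.5 to 172, 161 and 159, a rise of 1.38 ± 0.23, and the TNF receptor Tnfrsf1a rose by 1.19 ± 0.20. Il6ra, the interleukin-6 receptor, rose by 1.51 ± 0.33, with 1.16 and an adjusted p = 0.118 without control replicate 1. Fgfr1 rose by 0.54 with overlapping groups, and the activin receptor Acvr1b fell by 1.12. The median of the receptors was -0.18.

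Of 14 targets and regulators of TGF-beta and BMP signalling 4 rose (28.6%) and 1 fell. These were Ccn2, its relative Ccn1 (1.16 ± 0.19), the corepressor Tgif1, which went from 147 and 112 to 448, 416 and 312 (1.41 ± 0.23), and Id1, an inhibitor of basic helix-loop-helix factors (0.97 ± 0.21). Id4, of the same family as Id1, fell by 0.43. Tgif1 had an adjusted p = 0.0630 without control replicate 2 and Id1 an adjusted p = 0.113 without control replicate 1.

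**Figure D4:**
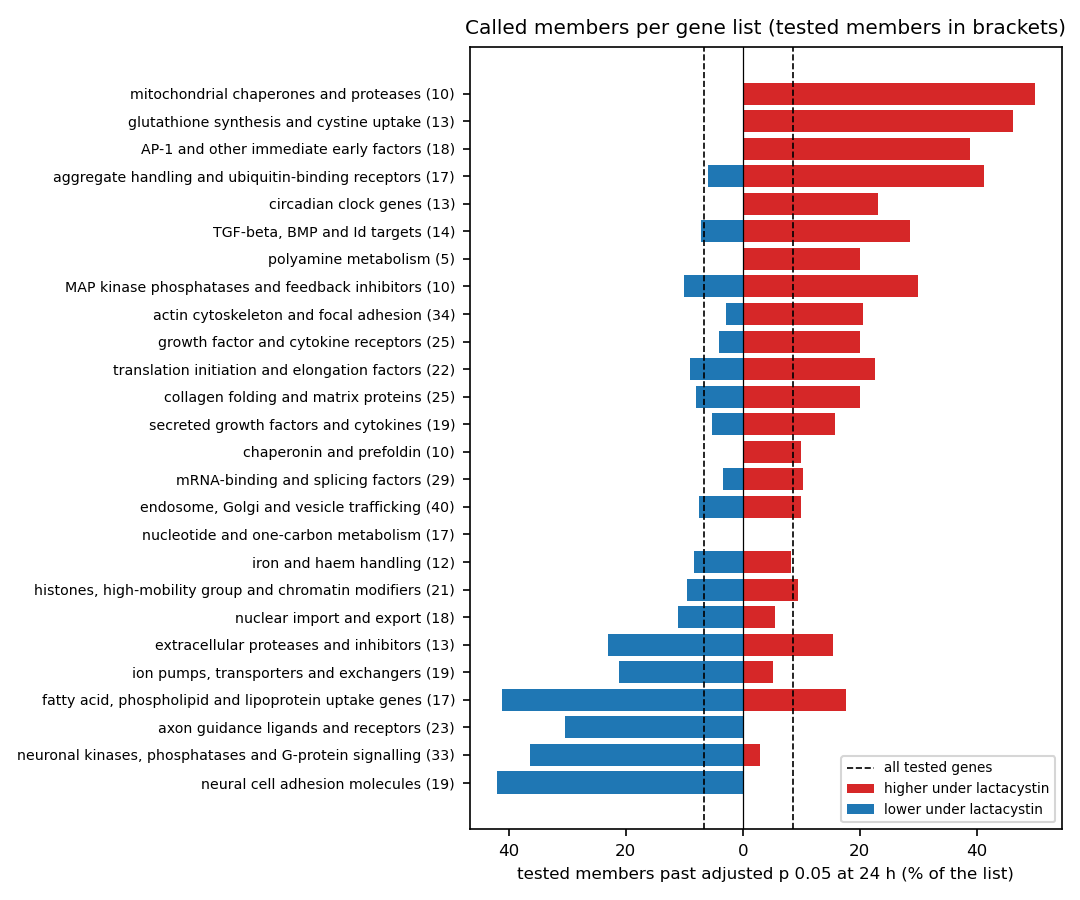
Changes at 24 h in the tested members of the 26 gene lists, with the genes past the threshold shown by direction. In the axon guidance and neural adhesion lists 30.4% and 42.1% fell and 0 rose, and the median log2 changes were -0.45. In the glutathione and immediate early lists 46.2% and 38.9% rose and 0 fell, with medians of 0.44 and 0.42. In the mitochondrial chaperone list 5 of 10 rose and 0 fell, with a median of 0.42.

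Among 34 genes of the actin cytoskeleton and of focal adhesions 7 rose (20.6%) and 1 fell, with a median of 0.18. Myh9, the heavy chain of non-muscle myosin, went from 448 and 613 to 985, 1265 and 1149.7 (1.03 ± 0.15), and Actn1, which crosslinks actin, rose by 1.01 ± 0.15. The integrins Itgav (0.94 ± 0.18), Itga6 (0.90) and Itgb1 (0.84) rose too, as did Vcl (vinculin, 0.92 ± 0.19) and Actn4 (0.60), and Lasp1 fell by 0.65. The other 2 probe sets of Itgav gave 0.13 and 0.30 and were not past the threshold. Itgav and Vcl lost their calls without control replicate 2, with adjusted p = 0.0931 and adjusted p = 0.171.

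Of 25 genes of collagen folding and matrix 5 rose and 2 fell, with a median of 0.02. Sparc, a collagen-binding matrix protein, went from 395 and 518 to 1328, 1329 and 1277, a rise of 1.40 ± 0.16. Tnc (tenascin-C) rose by 1.30 ± 0.20, Col5a2 by 0.94 ± 0.27 and the collagen hydroxylase P4ha1 by 0.84, while Vcan (versican) fell by 0.79 and Fbln1 by 0.67. Col5a2 lost its call without either control or without lactacystin replicate 1 or 2, with adjusted p between 0.0715 and 0.192, and 3 members rose without either control. Tnc stood at 1.05 without control replicate 2 (adjusted p = 0.0523), when 0 members fell. Of 13 extracellular proteases and inhibitors 2 rose and 3 fell: Plat, tissue plasminogen activator, rose by 1.31 ± 0.15 and the surface protease Adam8 by 1.31 ± 0.27, and the inhibitors Timp2 (-0.83 ± 0.22), Serpini1 (-0.75 ± 0.14) and Cst3 (-0.50) fell. Adam8 missed the threshold without either control (adjusted p = 0.0527 and adjusted p = 0.101). Timp2 missed it in 4 of the 5 cases, with adjusted p between 0.0597 and 0.364. Summed fibroblast and mural markers were higher in the lactacystin arrays, as given above, though of 10 tested members 1 rose and 0 fell. That is 10.0% risen, near the 8.66% over all tested genes. Igfbp2 was the largest part of each sum (1666 and 2639 against 3957, 2710 and 3037). Thy1 (498 and 495 against 558, 770 and 804) is also in the neural adhesion list. Acta2 (400 and 306 against 1086, 334 and 457) was highest on the U74A lactacystin array, as was Tagln. In the collagen Col1a1 (331 and 405 against 312, 277 and 246) no lactacystin signal lay above the higher control. The same held for Dcn (221 and 139 against 145, 91.6 and 111). The part of these cells in the matrix and actin rises was not tested.

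Of 13 genes of glutathione synthesis, cystine uptake and NADPH supply 6 rose (46.2%) and 0 fell, with a median of 0.44. Taldo1 and Me1, which feed NADPH, rose by 1.08 ± 0.23 and 1.01 ± 0.17. Txnrd1, thioredoxin reductase, went from 1786 and 1366 to 3284, 3054 and 2948, a rise of 0.98 ± 0.13, and its substrate Txn1 rose by 0.66. Gss, glutathione synthetase, rose by 0.82 ± 0.16, and Slc3a2, a chain of the cystine transporter, by 0.57. Between 2 and 6 members rose with 1 array left out, 2 without control replicate 1 and 3 without control replicate 2. Of 12 iron and haem genes 1 rose, Urod (0.62 ± 0.18), and 1 fell, the transferrin receptor Tfrc (-0.65 ± 0.18), each losing its call in 3 or more of the 5 cases, with adjusted p up to 0.233. Aco1 had -0.46 and Fth1 0.42, not past the threshold.

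Of 17 tested genes that sort or extract ubiquitin-tagged proteins 7 rose (41.2%) and 1 fell, with a median of 0.34. Sqstm1 (p62), a receptor that carries ubiquitinated cargo to autophagy, went from 1446 and 1726 to 4828, 5599.5 and 5827, a rise of 1.68 ± 0.16 (adjusted p = 8.98e-05). Vcp, the ATPase that extracts ubiquitinated proteins, had 4222 and 3748 against 6376, 8638 and 8668 (0.95 ± 0.13), and its cofactor Ufd1 rose by 0.86 ± 0.19. Gabarapl1 (0.67 ± 0.14), Rad23b (0.49), Nbr1 (0.41) and Tax1bp1 (0.41), all ubiquitin or autophagy adaptors, rose by less, and Ubqln2, a shuttle factor, fell by 0.45. Sqstm1 and Vcp kept their calls with any 1 array left out. Without control replicate 2 there were 2 rises in the list, and Ufd1 then stood at 0.57 (adjusted p = 0.242) and Gabarapl1 at 0.78 (adjusted p = 0.0587).

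Of 10 mitochondrial chaperones and proteases 5 rose and 0 fell, with a median of 0.42. Hspe1, the small partner of the mitochondrial chaperonin, went from 2915 and 2943 to 6423, 6413 and 6514, a rise of 1.12 ± 0.10 (adjusted p = 4.72e-05). Hspa9, the mitochondrial Hsp70, had 1814 and 1887 against 3181, 4140.2 and 4167 (0.98 ± 0.10). Grpel1, its exchange factor, rose by 0.66 ± 0.12, the matrix protease Clpp by 0.66 ± 0.14 and the chaperonin Hspd1 by 0.55. Grpel1 and Clpp missed the threshold without control replicate 2 (adjusted p = 0.0575 and adjusted p = 0.122), when 2 members of the list rose. In the cytosolic chaperonin and prefoldin list 1 of 10 rose, Cct3 (0.53 ± 0.10), while Tcp1 had 0.37, Pfdn2 0.29 and Cct5 0.24.

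Of 29 mRNA-binding and splicing factors 3 rose (10.3%) and 1 fell, with a median of -0.02. Tial1, a stress granule protein, rose by 0.58 ± 0.14 and the ubiquitous mRNA stabiliser Elavl1 by 0.46 ± 0.13, while its neuronal relative Elavl3 fell by 0.71 ± 0.20. The neuronal Elavl4 had -0.45, not past the threshold. Elavl1 and Elavl3 each lost their call in 4 of the 5 cases, with adjusted p up to 0.223 and up to 0.473, and Tial1 in 3, with adjusted p up to 0.217. Of 22 translation factors 5 rose (22.7%) and 2 fell. Eif4ebp1, a repressor of cap-dependent translation, went from 146 and 275 to 564, 689 and 709, a rise of 1.48 ± 0.16. Eif3d rose by 0.68 ± 0.10, Eif6 by 0.59 ± 0.13, Etf1 by 0.56 and Eif3c by 0.40. Eef1a2, the elongation factor of mature neurons, fell by 0.87 ± 0.19, and Eif4a2 by 0.47. Without control replicate 2, 2 rises passed and 0 falls, and Eef1a2 had an adjusted p = 0.209. Eif6 missed the threshold without either control (adjusted p = 0.0900 and adjusted p = 0.0719). Of 18 nuclear transport genes 1 rose, Ran (0.30), and 2 fell, Rangap1 (-0.44 ± 0.13) and Kpna3 (-0.34 ± 0.10), and these falls lost their calls in 4 and in all 5 of the cases, with adjusted p up to 0.21. Nup54 stood at 0.45 and Cse1l at -0.30, not past the threshold.

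Of 21 histone, high-mobility group and chromatin genes 2 rose and 2 fell. Hmga2, a chromatin protein of embryonic and dividing cells, had 18.8 and 31.6 in the controls and 145, 193 and 209 under lactacystin, a rise of 1.91 ± 0.29 that held with any 1 array left out. The linker histone H1f2 rose by 0.90 ± 0.23, and Cbx5 and Hmgb3 fell by 0.52 ± 0.13 and 0.45 ± 0.09. H1f2 had adjusted p up to 0.182 when 1 array was left out, Cbx5 up to 0.295 and Hmgb3 up to 0.0878. Among 13 circadian genes 3 rose, the repressor Nr1d2 (0.54 ± 0.16, overlapping groups), Clock (0.54 ± 0.16) and Bhlhe40 (0.52 ± 0.15), and 0 of the 13 passed when any 1 array of 24 h was left out. Cry2 had -0.39.

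Metabolic lists differed in direction. In the fatty acid, phospholipid and lipoprotein list 3 of 17 rose and 7 fell (41.2%), with a median of -0.26. Besides Scd1, Elovl6 and Fasn, the phospholipid enzyme Pcyt2 (-0.97), the acyl-CoA synthetase Acsl4 (-0.92), the brain desaturase Scd2 (-0.67) and the elongase Elovl5 (-0.45) fell. The 3 that rose act in the breakdown of fatty acids in mitochondria. Cpt1a, which brings fatty acids into mitochondria, went from 556 and 453 to 1643, 1186 and 1160.0, a rise of 1.35 ± 0.20, Hadh rose by 1.26 ± 0.24 and Acadm by 0.62. With any 1 array left out 6 or 7 members fell. Without control replicate 2 there was 1 rise in the list, and Hadh had an adjusted p = 0.0677. Of 5 polyamine genes 1 rose, Sat1, the acetylase that starts polyamine breakdown, which went from 348 and 179 to 809, 519 and 608 (1.29 ± 0.30), with 0.94 and an adjusted p = 0.246 without control replicate 2. Ahcy had -0.31, Azin1 -0.28 and Srm 0.18. Of 17 nucleotide and one-carbon genes 0 passed by limma, with Impdh1 at -0.57, Ampd3 at 0.54, Umps at 0.49 and Ppat at -0.43, and 2 had an unadjusted p under 0.05.

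Of 23 axon guidance genes 0 rose and 7 fell (30.4%), with a median of -0.45. Epha4, a receptor of ephrins, had 712 and 519 against 387, 243 and 259 (-0.85 ± 0.18), and the ephrin Efnb3 had 2042 and 2935 against 1349, 1543 and 1514 (-0.77 ± 0.16). Unc5c, a netrin receptor (-0.74 ± 0.17), Sema6b (-0.71 ± 0.18), the semaphorin co-receptor Nrp1 (-0.70), Epha7 (-0.64) and Sema7a (-0.51) fell as well. Both ligands and receptors were among them. Without control replicate 2 there was 1 fall in the list, with the median between -0.50 and -0.36 whichever array was left out. With that control left out Epha4 had -0.59 (adjusted p = 0.206), Efnb3 -0.61 (adjusted p = 0.154) and Sema6b -0.45 (adjusted p = 0.350), and Unc5c had -0.55 (adjusted p = 0.135) without control replicate 1.

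Of 19 neural adhesion molecules 0 rose and 8 fell (42.1%), with a median of -0.45. L1cam is given above, and without control replicate 2 it stood at -0.55 (adjusted p = 0.587). Cdh8 (-0.85 ± 0.20) and Cdh13 (-0.82 ± 0.16), both cadherins, Chl1 (-0.78 ± 0.13), a relative of L1cam, and the contactin Cntn1 (-0.60) fell, followed by Gpm6b (-0.46), Ncam1 (-0.45) and Cadm1 (-0.38). In Chl1, Gpm6b and Ncam1 the groups overlapped. Between 2 and 5 falls passed with 1 array left out, the fewest without control replicate 2, when Cdh8 and Cdh13 had adjusted p = 0.131 and adjusted p = 0.116.

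Of 33 neuronal kinases, phosphatases and G-protein genes 1 rose and 12 fell (36.4%), with a median of -0.33. Rgs7, which speeds G-protein shut-off, stood at -0.82 ± 0.21, and Gng2, a G-protein subunit, at -0.83 ± 0.13 with overlapping groups. Ppp3cb, a catalytic subunit of calcineurin, went from 1069.5 and 1006 to 565, 556 and 609 (-0.77 ± 0.18), and Ppp3r1, its regulatory subunit, had -0.78 and was not past the threshold. The falls also took in Prkce (-0.72), Prkcb (-0.55) and Prkaca (-0.53), kinases of lipid and cyclic AMP signals, Camk2b (-0.50) and Gnao1 (-0.31), and Rgs16 rose by 0.49, though 0 members rose when any 1 array was left out. Between 3 and 10 falls passed with 1 array left out, the fewest without control replicate 1. Rgs7 then had an adjusted p = 0.231, and Ppp3cb had an adjusted p = 0.206 without control replicate 2.

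Of 19 ion pumps and transporters 1 rose and 4 fell, with a median of -0.14 (0.02 within U74Av2). Slc2a1, the widespread glucose transporter, went from 20.2 and 85.5 to 114, 189 and 191, a rise of 1.23 ± 0.26, with an adjusted p = 0.0930 without control replicate 1. Slc8a1, a sodium-calcium exchanger, fell by 0.93 ± 0.13, and Atp1b2, a sodium pump subunit of astrocytes, by 0.79 ± 0.19 with overlapping groups. Slc6a6, the taurine transporter, fell by 0.48 ± 0.15, and Slc1a1, a neuronal glutamate transporter, by 0.46. Atp1b2 and Slc6a6 lost their calls in 3 and in 4 of the 5 cases, with adjusted p up to 0.296 and up to 0.389. Of 40 trafficking genes 4 rose and 3 fell, with a median of 0.02. Ap2a1, an adaptor of endocytosis, fell by 1.00 ± 0.23 and Arf3, with overlapping groups, by 0.98 ± 0.23. Other probe sets of Arf3 gave -0.48 and -0.76, the latter not past the threshold. Stx4a, a fusion protein of the plasma membrane, rose by 0.84 ± 0.18 and the coat protein Sec13 by 0.66 ± 0.10. With lactacystin replicate 1 left out 0 falls passed. Between 1 and 5 rises passed with 1 array left out, the fewest without control replicate 2. In that case Ap2a1 had an adjusted p = 0.275, Arf3 an adjusted p = 0.295 and Stx4a an adjusted p = 0.116.

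Beside these falls, the summed neuron markers were 21270 to 26967 under lactacystin against 30744 to 39693 in the controls. Stmn2 fell by 0.74 ± 0.11, Dcx by 0.64 ± 0.11 and Gap43, with overlapping groups, by 0.38 ± 0.09. Snap25, a vesicle fusion protein, had 1902 and 2305 against 1822, 2499 and 2181, and Eno2, the neuronal enolase, 753 and 869 against 1050.2, 875 and 866, and in both the groups overlapped. The part of a lower neuronal RNA share in the fall of axonal and signalling genes was not tested.

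The change at 48 h was set against that at 24 h in the same fit, as a test of the difference itself. It found 69 of 5541 genes (1.25%), and 62 of these had passed at 24 h. Of the 62, 50 had risen, and in all 50 the signed change at 48 h was below that at 24 h. In 2 of them, Slc7a3 (0.50 ± 0.13 at 24 h and -0.85 at 48 h) and Snx10 (0.38 ± 0.10 and -0.40), it was larger in size and of opposite sign. Of these 50, 20 were in the usual lists and 30 were not, with the chaperones Hspe1, Hspa9 and Hspa5 among the 30. The other 12 had fallen at 24 h, and in all 12 the change at 48 h was above 0. The difference holds the 24 h change with its sign reversed. Choosing genes that passed at 24 h therefore favours these directions, and nothing is read from their uniformity. The test rests on both controls of 24 h: over probe sets it found 86, but 16 when control replicate 2 was left out and 28 for control replicate 1. Leaving out lactacystin replicate 2 or 3 gave 39 and 36, and leaving out lactacystin replicate 1 gave 186.

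Among the 20 largest rises 3 passed this test. Fosl1 went from 3.02 ± 0.24 at 24 h to 1.08 at 48 h (adjusted p = 0.0180 for the difference), Ier3 from 2.51 ± 0.26 to 0.44 (adjusted p = 0.0225) and Cyb5r1 from 2.17 ± 0.18 to 0.37 (adjusted p = 0.00808). Plaur had 0.13 at 48 h, and its difference was not past the threshold (adjusted p = 0.0527). Of the 20 rises 15 were also past the threshold at 48 h. The share of all tested genes past it at 48 h is not given here, so nothing is read from this count. Anxa3 stood at 2.89 then, Ccn2 at 2.51 and Serpinh1 at 1.78. The immediate early genes Fosl1 and Ier3 were thus smaller at the later time by the test, and for Anxa3, Ccn2 and Serpinh1 the difference did not pass it.

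In the protein quality lists, Sqstm1 (0.33 at 48 h, adjusted p = 0.0174 for the difference), Vcp (0.07, adjusted p = 0.0375), Ufd1 (-0.41, adjusted p = 0.0462), Hspa9 (0.20, adjusted p = 0.0257) and Hspe1 (0.34, adjusted p = 0.0203) had smaller changes at the later time. Eif3d went to -0.05 (adjusted p = 0.0269). Of these genes Hspe1 was past the threshold at 48 h (adjusted p = 0.0469), and the other 5 were not.

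Of the 20 largest falls 1 passed the test of the difference. Aqp4 went from -1.89 ± 0.18 at 24 h to 0.49 at 48 h (adjusted p = 0.00186), and Gfap from -0.64 ± 0.15 to 1.40 (adjusted p = 0.00186), with lactacystin lower at the first time and the estimate higher at the second for both. Of the falls 9 were also past the threshold at 48 h, among them Scd1 (-2.64), Fasn (-0.97) and Elovl6 (-1.15). Over all genes 257 passed with the same sign at both times and 9 with opposite signs. These counts, too, are given without the share of all tested genes past the threshold at 48 h, and nothing is read from them.

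**Figure D5:**
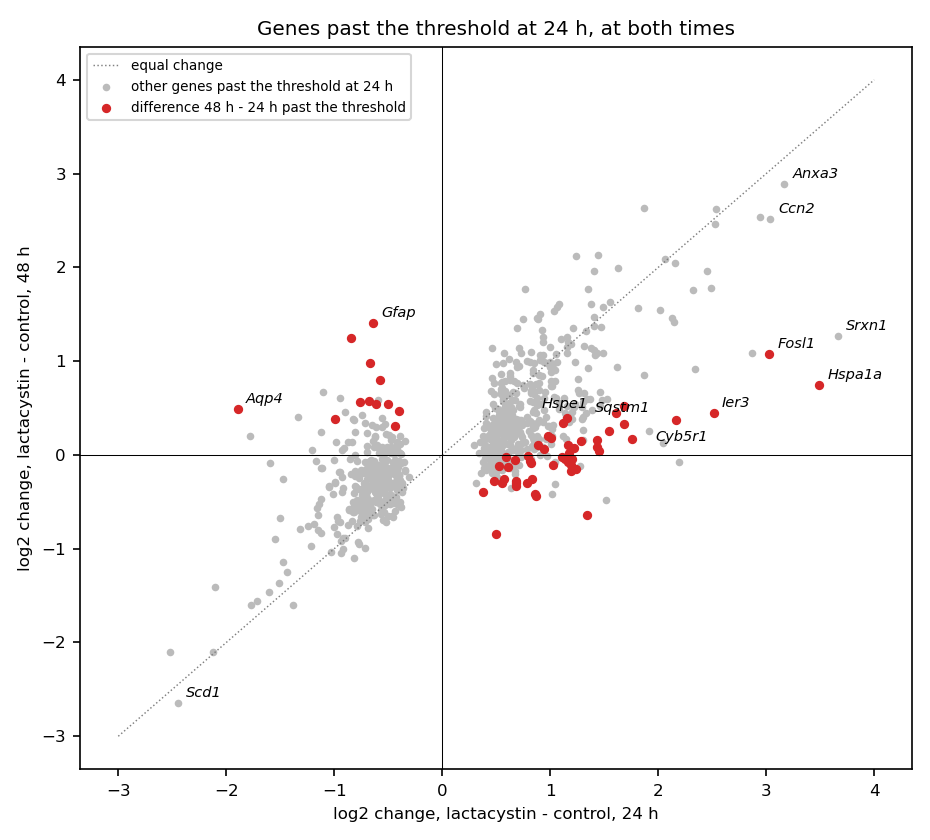
Log2 change under lactacystin at 24 h (x axis) against that at 48 h (y axis) for the 850 genes past the threshold at 24 h. Those past the test of the difference are marked and some genes are named. Sqstm1, Vcp and Hspe1 lie at 1.68, 0.95 and 1.12 on the x axis and at 0.33, 0.07 and 0.34 on the y axis, and Aqp4 and Gfap lie left of 0 and above 0.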

How the data were processed

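RNA was measured on 10 Affymetrix arrays, 1 per sample, in 2 deposited tables, of 10043 probe sets for U74A and 12488 for U74Av2. The deposited intensity values are MAS5 signals per the submitters' processing notes, which give no version in the sources used here. Values of the 9977 shared probe sets, without 66 control probe sets, were scaled on each array to a 2% trimmed mean of 500, and log2(signal + 32) was taken. The 2993 probe sets with the lowest mean (30%) were left out. Groups of agent and time were fitted on all 10 arrays with design as a covariate (limma 3.58.1 in R 4.3.3, lmFit and eBayes with trend, 5 residual degrees of freedom), two-sided, with Benjamini-Hochberg adjustment over 6984 probe sets. Culture batch or processing date, where it went with array design, cannot be told apart from it.

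Of the shared probe sets 8724 had 1 symbol in the platform annotation, 346 several and 907 none, and 8710 symbols were brought up to date with RefSeq (GRCm38.p6), matched on Entrez identifiers. Probe sets with several symbols name no gene. The probe set with the highest mean stood for its gene. Named genes were the 20 largest rises and 20 largest falls that passed and agreed in sign between designs, outside the 3 usual lists, and from each list at most the 4 members that differed most. Marker genes, further called list members and genes of the difference between the times were named after their values were seen. The members and lists were chosen with earlier results of these data known.

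In data simulated for the 24 h comparison over 6984 probe sets, 32.8% of 1.5-fold, 67.2% of 2-fold and 97.0% of 4-fold differences were called, and 5.76% of all calls were false. The simulation changed fewer probe sets than were called in the real data, and its noise was independent between arrays. Its share of false calls is therefore not an estimate for the real calls. The alternatives were other pseudocounts, scalings, filters and variance models, no design covariate, U74Av2 alone, 24 h alone, a replicate block and leaving out each array of 24 h. Counts per list under each alternative were added after seeing the data.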

Additional observations from a re-analysis of the deposited data

Results flagged for a closer look

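For 10 of the named genes the change under lactacystin at 48 h differed from that at 24 h by the limma test of the difference, given here as the change at 48 h minus that at 24 h on the log2 scale. The difference was above 0 for Aqp4, at 2.38 (adjusted p = 0.00186). It was below 0 for the immediate early genes Fosl1 (-1.95, adjusted p = 0.0180) and Ier3 (-2.07, adjusted p = 0.0225) and for the reductase Cyb5r1 (-1.80, adjusted p = 0.00808). Among genes of protein quality control it was -1.35 for Sqstm1 (adjusted p = 0.0174), -0.88 for Vcp (adjusted p = 0.0375), -1.28 for Ufd1 (adjusted p = 0.0462), -0.78 for Hspa9 (adjusted p = 0.0257) and -0.78 for Hspe1 (adjusted p = 0.0203). The translation factor Eif3d had -0.73 (adjusted p = 0.0269).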

How the results depend on the processing

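Of 1038 probe sets past the threshold at 24 h, 248 passed without the design covariate and 564 on the U74Av2 arrays alone. Leaving out 1 array of 24 h gave 310 (without control replicate 2) to 759. The other settings gave 780 (replicate block with array design) to 1301. The difference between 48 h and 24 h had 86 probe sets, 29 higher and 57 lower. There were 155 (19 higher and 136 lower) with median scaling, 48 with no filter on low probe sets, 2 without the design covariate, 12 on U74Av2 alone and 36 without a variance trend, and 16 (without control replicate 2) to 186 with 1 array left out. The replicate block gave 60 for this difference. Replicate numbers were not taken as pairs. Same-numbered arrays of 24 h share a design, and their deviations from group means correlated at 0.664 and 0.516. The value was 0.561 for control replicate 2 and lactacystin replicate 3 of 24 h. Lactacystin replicate 3 of 24 h and of 48 h, of different designs, had -0.555. Design was not removed from these deviations, so they cannot tell pairing from design. Of 117 called genes named by the rule none reversed in any setting run, 106 kept their calls under the block, 47 without the design covariate and 60 without control replicate 2. With 2 controls, signals near the pseudocount limit what a fall can show.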

Other observations

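Some genes outside every list had changes at 24 h that differed from those at 48 h, and they are named after their values were seen. Hk2, a hexokinase of the mitochondrial surface, had 22.4 and 73.9 in the controls and 189.8, 279 and 275 under lactacystin, a rise of 1.76 ± 0.18, and stood at 0.17 at 48 h (adjusted p = 0.0130 for the difference by limma). Lmna, the nuclear lamin of stiff tissues, rose by 1.69 ± 0.13 and stood at 0.52 at 48 h (adjusted p = 0.0128), and the stress-responsive factor Cebpb rose by 1.61 ± 0.17 and stood at 0.45 (adjusted p = 0.0393). Ptprn, a membrane protein of dense-core vesicles, rose by 1.44 ± 0.16, and Akap12, a scaffold of protein kinase A, by 1.43 ± 0.19, with 0.08 and 0.16 at 48 h (adjusted p = 0.0130 and adjusted p = 0.0442).

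The 12 genes that fell at 24 h and had a change above 0 at 48 h were of mixed kinds and are also named after their values were seen. Besides Aqp4, Gfap and Id4, Dbi, an acyl-CoA-binding protein, had 5119 and 5154 against 3095, 2301 and 2275 at 24 h, a fall of 1.00 ± 0.12, and stood at 0.38 at 48 h (adjusted p = 0.00514 for the difference). Plpp3, a lipid phosphatase, went from -0.67 ± 0.16 to 0.98 (adjusted p = 0.00808), Fxyd1, a regulator of the sodium pump, from -0.58 ± 0.17 to 0.80 (adjusted p = 0.0215), and Pygb, the brain glycogen phosphorylase, from -0.50 ± 0.12 to 0.55 (adjusted p = 0.0130). Mfge8, a secreted bridge for the uptake of dying cells, went from -0.40 ± 0.12 to 0.47 (adjusted p = 0.0335). Glycam1, a mucin-like adhesion ligand, went from -0.84 ± 0.22 to 1.25 (adjusted p = 0.00945) and Pxmp2, a peroxisomal membrane protein, from -0.76 ± 0.13 to 0.56 (adjusted p = 0.00819). The others were Acy3, an aminoacylase (-0.68 ± 0.18 to 0.58, adjusted p = 0.0421), and Agap2, a GTPase-activating protein (-0.61 ± 0.16 to 0.54, adjusted p = 0.0326).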
